A study of Rattus norvegicus with 25 samples.

Results

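Faecal bacteria of rats fed linseed oil were compared with those of rats fed a control oil, both without wheat aleurone, by the order of probe signals on a 16S rRNA gene microarray. The samples were the 6 of group LO (linseed oil) and the 6 of group PO (control oil of equal energy), out of 25 samples on 13 arrays in the whole series. They were chosen by their labels and dye: all 12 were the Cy3 channel of their array, and the Cy5 channel of each array held a sample with aleurone in the diet. Per the labels, all animals were Wistar rats on their diet for 12 weeks, and the samples share every step after faecal DNA extraction: amplification of 16S genes from 10 ng of template over 35 PCR cycles, labelling of 1 µg of product and hybridisation of 250 ng. The labels number the samples within a group. Where nothing more says that these were separate animals or cages, p-values measure the spread between these samples. All PO arrays shared a slide and a scan, and all LO arrays another slide and scan. The effects of oil and of slide therefore cannot be told apart in any value below.

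The 16S rRNA gene is present in all bacteria, and its variable stretches differ between taxa, so amplified 16S genes hybridised to short probes give a picture of which bacteria are present and which lead. Cross-hybridisation between related taxa and unequal amplification are known limits of such arrays. Linseed oil is rich in alpha-linolenic acid, the plant omega-3 fatty acid. Most dietary fat is absorbed in the small intestine, and the part that reaches the large bowel meets the bacteria measured in faeces. The array, the HuGChip, was designed for bacteria of the human gut and was used here on rat faeces.

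The array holds 4441 probes of 25 bases, each spotted 3 times. Probe names start with 1 of 66 numbers, and probes that share this number are called a set (b6968, for example). Probes that also share the next field of the name are called a stem (b6968_1), of which there are 329. No taxon is paired with these names in the sources used here, so sets and probes are given by name only. Within each sample every probe was given a percentile rank from 0 (dimmest) to 100 (brightest of the 4441). A rank does not move with the overall brightness of a channel. It is relative, so a higher rank of a probe and lower ranks of others cannot be told apart.

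Of the 4441 probes 540 gave a signal above background in all 12 samples, 1876 in 1 or more and 2565 in none. The comparisons used the 979 probes above background in at least 6 of the 12 samples, called kept probes. They come from 164 stems and 60 sets, and 45 sets with at least 3 kept probes were compared as sets. Kept probes are not independent readings: 83.8% of them have another probe of their stem that differs from them by at most 2 bases, with a median of 1 base to the nearest probe of the same stem and 15 bases to the nearest probe of another stem of the set. The median GC content was 56% over kept probes, 48% over probes above background in no sample and 52% over all probes.

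Samples PO 1, LO 4 and LO 3 stood apart before any comparison of the diets. PO 1 had a median raw intensity of 684 and a median of 500.4 on the negative controls, beside 85.8 to 181 and 73.1 to 155 in the other 11 samples, and the most detected probes of the 12 (1434). LO 4 had the fewest detected probes (679), and the Spearman correlation between the 3 spots of a probe was 0.640 in LO 4 and 0.782 in PO 1, beside 0.853 in LO 11 and 0.889 to 0.970 in the rest. LO 3 was unlike the other samples with spots that agreed well with each other (0.914). No spot was saturated in any of the 12 channels. The brightest raw spot ran from 268508 to 469365 in PO and from 550599 to 723289 in LO, so the bright end of the scale moved with slide and oil together and its part in the results was not tested.

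The first question was whether the rank order of the bacteria as a whole went with the oil. It did so by no test run on the kept probes. The mean Spearman correlation of probe ranks was 0.716 between PO samples (0.510 to 0.894 over 15 pairs), 0.659 between LO samples (0.340 to 0.909 over 15 pairs) and 0.686 between a PO and an LO sample (0.301 to 0.891 over 36 pairs). The mean between the oils lay between the means within them, and for 5 of the 12 samples the most similar sample was of the other oil. A pseudo-F, the ratio of variation between to variation within the groups, was computed on 1 minus the Spearman correlation. It was 1.36, with the oil accounting for 12.0% of the variation (exact permutation over 924 splits, p = 0.251). Leaving out a sample at a time moved it from 0.786 (without PO 1) to 1.53 (without LO 6), and no such value passed. With the square root of that distance it was 1.02 (exact permutation p = 0.452); the form of the distance was settled after both values had been seen.

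**Figure D1:**
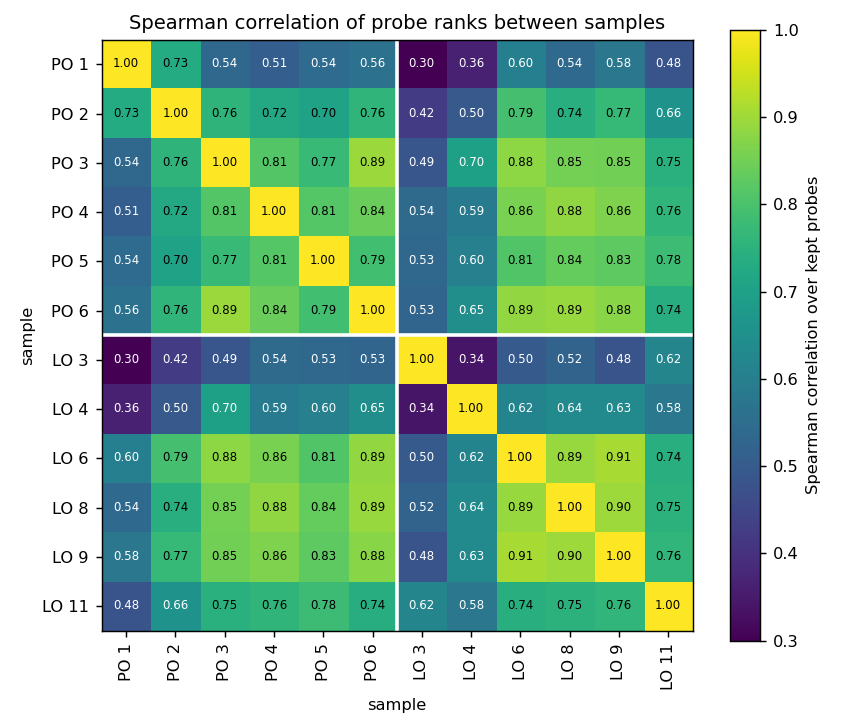
Spearman correlation of probe ranks over the 979 kept probes for every pair of the 12 samples, with white lines between the PO and LO samples and brighter colours for higher values. The rows of PO 1, LO 3 and LO 4 are the darkest, and the blocks of the other samples are about as bright between the oils as within them.

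The samples with low similarity came from both oils. The mean correlation of a sample with the other 11 was 0.479 for LO 3, 0.522 for PO 1 and 0.564 for LO 4. It was 0.686 for PO 2, 0.692 for LO 11 and 0.728 to 0.772 for the remaining 7 samples. The lowest single value, 0.301, was between PO 1 and LO 3, and the highest, 0.909, between LO 6 and LO 9. PO samples were not shown to be more alike than LO samples: the difference in mean similarity was 0.0573 (exact permutation, two-sided, p = 0.758), and it was -0.0277 without LO 3 and 0.138 without PO 1.

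When dim probes were included, over all 4441 probes, the pseudo-F was 1.77 (exact permutation p = 0.0346). Over the 2565 probes that were above background in no sample, it was 1.86 and did not pass (exact permutation p = 0.0584), and the mean correlation was 0.323 between PO samples, 0.208 between LO samples and 0.204 between the oils. The value over these 2565 probes was added after the first result was seen. None of these probes met the rule for a signal above background in any sample, which does not show that they carry no signal.

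No single probe passed the test between the oils. In limma with Benjamini-Hochberg adjustment 0 of 979 kept probes passed (0% called, smallest adjusted p 0.753), and before adjustment 49 (5.01%) were under 0.05, with 36 higher and 13 lower in LO. Over all kept probes 522 were higher in LO (53.3%) and 457 lower, with a median difference of 0.25 points. The median absolute difference between the oils was 2.11 points with a median SE of 2.36. Ranks had a median SD of 3.32 points between PO samples and 3.99 between LO samples. Between the 3 spots of a probe within a sample the median SD was 2.17. Taken sample by sample, the median spot SD ran from 0.724 to 4.65, with a median of 1.14 over the 12 samples. It was highest in LO 4 (4.65) and PO 1 (2.82). These sample values rank single spots, flagged outliers included, whereas the SDs between samples use averaged spots. The SD was larger in LO than in PO for 538 probes (55.0%). The mean ranks of the groups ran in parallel, with a Spearman correlation of 0.871 over kept probes, given as a description since probes of a stem share sequence.

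**Figure D2:**
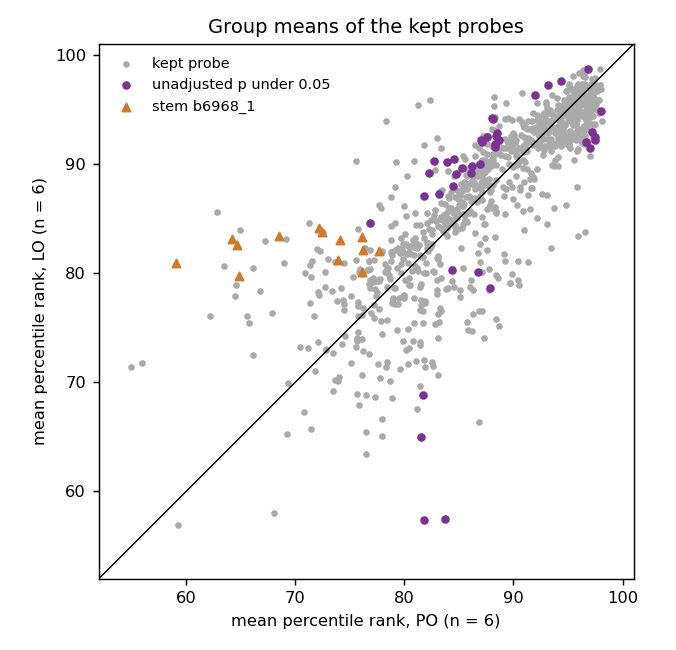
Mean percentile rank of each of the 979 kept probes in PO (x axis) and LO (y axis), n = 6 each, with the line of equality; purple points are probes outside stem b6968_1 with an unadjusted limma p under 0.05 and orange triangles the 13 kept probes of stem b6968_1, 9 of which are also under 0.05. Points lie along the line with more scatter at lower ranks, and all 13 triangles lie above it.

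Only 2 kept probes had groups that did not overlap (0.204%), b6965_3_2 and b6955_5_5, both higher in LO. Probe b6965_3_2 ranked 78.2, 82.5, 87.4, 84.2, 85.1 and 86.1 in PO 1 to PO 6. In LO 3, 4, 6, 8, 9 and 11 it ranked 91.1, 92.3, 87.9, 88.9, 90.5 and 90.2. Every LO sample lay above every PO sample, with PO 1 the lowest of all and PO 3 only just below LO 6. The means were 83.9 ± 3.26 and 90.2 ± 1.58 (SD, n = 6 each), a difference of 6.25 points (SE 1.64, 95% interval 2.70 to 9.79) that did not pass (limma unadjusted p = 0.00227, adjusted p = 0.753). Its raw intensity ran from 669 to 8978 with a median of 3074 in PO and from 5647 to 77948 with a median of 30292 in LO, so these ranges overlapped.

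Probe b6965_3_2 stood nearly alone in its stem. Its GC content is 84%, and the closest of the 9 probes of stem b6965_3 differs from it by 7 bases. Of the 3 kept probes of that stem 2 were higher in LO, and the stem's mean rank was 86.7 ± 2.15 in PO and 88.6 ± 2.03 in LO, with overlapping groups. In the Cy5 channels of the same slides, which held samples with aleurone in the diet, b6965_3_2 ranked 83.4 ± 3.59 with control oil (n = 6) and 90.3 ± 2.26 with linseed oil (n = 7). The fitted difference was 6.91 points, beside 6.19 for Cy3 in the same joint fit. The Cy5 channels hold other samples, but they share the slides, and the effects of oil and slide cannot be separated there either. Over all kept probes, LO minus PO had a Spearman correlation of 0.181 with GC content, given as a description.

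The other probe without overlap, b6955_5_5, is named because so few had this property. It was above background in 6 LO samples and 1 PO sample, so it was kept only through the group where it ranked higher, and its difference is given as a description. Its ranks ran from 22.8 to 76.8 with a median of 75.7 in PO and from 77.6 to 85.0 with a median of 80.4 in LO. The highest PO sample, PO 4, lay just below the lowest LO sample, LO 11, while PO 2 (22.8) and PO 1 (53.9) lay far below the rest. The difference of the means was 17.1 points.

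The second probe given as higher in LO was b6955_3_8. It ranked 93.2 to 95.0 with a median of 94.7 in PO and 95.0 to 99.2 with a median of 98.6 in LO. LO 4 (95.00) lay within the PO range and LO 9 (95.4) just above it, and the other LO samples lay clearly above. The means were 94.4 ± 0.753 and 97.6 ± 1.91 (SD, n = 6 each), a difference of 3.26 points (SE 0.992, limma adjusted p = 0.753). Of the 31 kept probes of its stem, 17 were higher and 14 lower in LO, and the stem as a whole stood at 91.1 ± 1.88 and 91.1 ± 2.14.

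The probes given as lower in LO belong to a single stem, b6947_5, and differ from each other by 2 bases, so they do not count as separate readings. Probe b6947_5_6 ranked 94.5 to 99.98 with a median of 98.7 in PO and 93.6 to 96.5 with a median of 94.6 in LO. The groups overlapped through PO 4, the lowest PO sample. The difference was -3.23 points (SE 1.03, limma adjusted p = 0.753), from 98.1 ± 1.99 to 94.8 ± 1.006 (SD, n = 6 each). Its raw intensity went the other way. It ran from 163348 to 442536 with a median of 258243 in PO and from 181045 to 605411 with a median of 531546 in LO. This probe is thus lower in LO by rank only, and the part of the brighter LO scale was not tested. In the Cy5 channels with aleurone the fitted difference of this probe had the other sign, 1.29 points, and the difference between the 2 contrasts did not pass (limma adjusted p = 0.120). The other named probe of the stem, b6947_5_11, kept its sign, at -20.3 points in Cy5 beside -11.8 in Cy3 of the joint fit. The stem as a whole was not compared in Cy5. Probe b6955_3_8 also kept its sign, at 2.18 points in Cy5 beside 3.36 in Cy3.

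The PO mean of probe b6947_5_11 rested on 2 samples. The probe ranked 98.7 in PO 1 and 97.8 in PO 2, but 80.3 to 84.7 in the other 4 PO samples and 73.4 to 83.3 in LO. Its raw intensity was 185405 in PO 1 and 333452 in PO 2, and at most 1408 in the other 10 samples. The difference of the means was -9.23 points (SE 3.50, limma adjusted p = 0.753). The probe was above background in 6 PO and 3 LO samples. It thus met the rule for named probes only through PO, where it ranked higher, and its difference is given as a description. The whole stem followed: its 9 kept probes had a mean rank of 95.8 in PO 1 and 97.9 in PO 2, 89.3 to 91.9 in the other PO samples and 87.2 to 91.7 in LO.

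**Figure D3:**
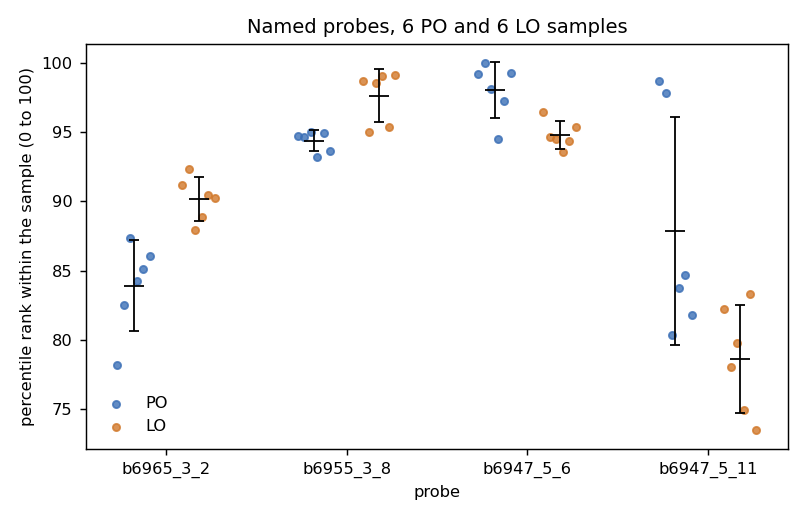
Percentile rank within the sample (y axis, 0 to 100) of the 4 named probes; each point is a sample (blue PO, orange LO, 6 each), and bars show the mean ± SD. Only b6965_3_2 has groups that do not overlap, and the PO mean of b6947_5_11 lies between PO 1 and PO 2 near 98 and the other 4 PO samples at 80.3 to 84.7.

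Averaging probes into sets gave the same count. In limma 0 of 45 sets passed (0% called, smallest adjusted p 0.280), 1 set was under 0.05 before adjustment (2.22%), and no set had groups without overlap (0%). Of the 45 sets 26 were higher and 19 lower in LO, with a median difference of 0.34 points and a range from -4.64 to 9.98. The order of the sets by group mean had a Spearman correlation of 0.752 between the oils, given as a description.

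Set b6968 had the smallest p of all sets. It ranked 66.9, 74.3, 73.9, 81.6, 71.7 and 68.5 in PO 1 to PO 6. In LO 3, 4, 6, 8, 9 and 11 it ranked 80.4, 85.5, 78.7, 80.5, 77.9 and 85.0. All LO samples lay above the PO mean, and a single PO sample, PO 4, lay within the LO range. The means were 72.8 ± 5.23 and 81.4 ± 3.19 (SD, n = 6 each), a difference of 8.55 points (SE 2.61, 95% interval 2.90 to 14.2, limma unadjusted p = 0.00623, adjusted p = 0.280). Of its 17 kept probes 15 were higher in LO and 9 (52.9%) had an unadjusted p under 0.05, beside 5.01% over all kept probes.

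That count rests on a single stem of near-identical probes (a median of 1 base between nearest neighbours) that were often not above background in PO. Stem b6968_1 has 182 probes on the array, the largest stem of the array, of which 13 were kept, and all 13 were higher in LO. They held all 9 probes with an unadjusted p under 0.05. The kept probes of this stem ranked 70.8 ± 6.06 in PO and 82.3 ± 4.22 in LO and were above background in 44.9% of probe and sample pairs in PO and 85.9% in LO. A probe of this stem could pass the filter through the LO samples alone. Neither this count nor the set's difference, interval and p are therefore support for a difference, and they are given as a description. Without the filter the difference of set b6968 was 2.43 points (limma adjusted p = 0.558). Over all 182 probes the mean rank was 44.3 ± 3.08 in PO (39.6 to 47.9) and 46.6 ± 3.83 in LO (42.6 to 52.1), and 6.78% ± 4.11 and 10.2% ± 4.84 were above background, with the same median of 8.52% in both groups. The groups overlapped widely on both measures. The median raw intensity of the 13 kept probes ran from 121 (PO 5) to 2064 (PO 1) in PO and from 535 (LO 8) to 4453 (LO 11) in LO, beside negative controls of 73.1 to 500.4 and 78.9 to 155. The kept probe with the smallest p of all 979, b6968_1_171, belongs here, with a difference of 14.9 points (limma unadjusted p = 0.00124, adjusted p = 0.753), but was above background in 1 PO and 5 LO samples. Its difference is likewise a description.

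Set b6946 was the other set given as higher in LO, at 75.9 ± 14.7 in PO and 85.9 ± 4.52 in LO (SD, n = 6 each), a difference of 9.98 points (SE 5.70, limma adjusted p = 0.663). Its values in PO were 54.9 in PO 1 and 61.1 in PO 2, and 76.2 to 88.5 in the other 4. In LO they ran from 81.5 to 93.6. PO 3, PO 4 and PO 6 thus ranked with the LO samples, and the difference was 5.78 without PO 1. The set has 5 kept probes out of 86, and 3 of them, all of stem b6946_5, ranked 39.4 in PO 1 and 48.1 in PO 2 and 71.9 to 99.2 in the other 10 samples.

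The sets given as lower in LO moved by less. Set b6980 ranked 82.4 ± 2.43 in PO (77.8 to 84.6) and 78.4 ± 4.41 in LO (73.4 to 83.9), a difference of -3.94 points (SE 2.13, limma adjusted p = 0.663). Set b6987 ranked 88.3 ± 3.36 in PO (82.0 to 91.2) and 85.0 ± 3.63 in LO (78.2 to 88.1), a difference of -3.24 points (SE 1.96, limma adjusted p = 0.663). In both sets the groups overlapped, although LO samples lay below the PO mean in 5 of 6 samples for b6980 and 6 of 6 for b6987. The difference of b6980 was -2.20 without LO 6, and that of b6987 was -1.88 without LO 4. All 8 kept probes of b6980 come from 1 stem, with 3 higher and 5 lower in LO.

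A further list of 11 sets was chosen with earlier results of these data known, b6983, b6992 and b6965 among them for values that went with the oil, so its counts are a description. These 11 sets contain 620 of the 979 kept probes (63.3%). Of the 11 sets 3 were higher and 8 lower in LO, with a median difference of -1.05 points beside 0.34 over all 45, and none of them passed. Their differences ran from -3.94 for b6992 to 2.15 for b6995.

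The sets of highest mean rank were b6955, b6967 and b6959, and they kept a narrow range. Set b6955 ranked 92.6 ± 1.20 in PO (91.2 to 94.3) and 92.0 ± 1.78 in LO (89.1 to 93.5). Set b6967 ranked 92.3 ± 1.64 in PO (90.9 to 95.5) and 91.6 ± 0.966 in LO (90.2 to 92.8). Set b6959 ranked 91.9 ± 0.896 in PO (90.7 to 93.0) and 90.6 ± 3.21 in LO (85.6 to 93.7). The differences were -0.60 (SE 0.888), -0.70 (SE 0.821) and -1.38 (SE 1.31) points, each about as large as its SE or smaller. Single samples moved them: without LO 4 b6955 stood at -0.0041 and b6959 at -0.40, and without PO 6 b6967 stood at -0.088. LO 4 and LO 3 were the lowest LO samples of b6959. Within b6959 55 of 182 kept probes were higher in LO, and 3 of the 182 were under 0.05 before adjustment, beside 53.3% higher and 5.01% under 0.05 over all kept probes. These 182 probes come from 4 stems and are not separate readings. When each stem counted once, the difference of b6959 was -0.40.

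Set b6995 had many probes on one side and a small difference. Of its 102 kept probes 90 were higher in LO and 16 (15.7%) had an unadjusted p under 0.05, beside 53.3% higher and 5.01% under 0.05 over all kept probes. All of these 90 and 16 belong to stem b6995_1, whose 100 kept probes have a median of 1 base to their nearest neighbour in the stem and are not separate readings. The set ranked 86.3 ± 2.74 in PO and 88.4 ± 1.59 in LO, a difference of 2.15 points (SE 1.37, 95% interval -0.82 to 5.13, limma adjusted p = 0.663), which was 1.34 without PO 1. The low samples were PO 1 (82.2) and PO 2 (83.4), the high one LO 3 (91.6), and the other 9 samples lay between 87.4 and 88.6. When each stem counted once, the difference was -0.47, since the 2 kept probes of stem b6995_5 went the other way, from 92.3 ± 4.70 to 89.1 ± 3.12.

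The other sets of this list overlapped between the oils throughout. Set b6983 ranked 87.2 ± 5.04 in PO and 83.7 ± 8.40 in LO, a difference of -3.51 points (SE 3.67) that came down to -0.10 without LO 4 (66.6). Set b6992 ranked 87.2 ± 4.82 and 83.3 ± 4.42, a difference of -3.94 points (SE 2.53) that was -0.43 without PO 1 (95.5). Set b6998 ranked 90.7 ± 1.68 and 89.4 ± 4.36, and its difference of -1.29 points (SE 1.79) turned to 0.43 without LO 4 (80.8).

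Sets b7008, b6947, b6965 and b7007 stood nearer to no difference. Set b7008 had the smallest SDs among these sets, at 86.3 ± 1.19 in PO and 85.2 ± 0.726 in LO, with all 6 LO samples below the PO mean and a difference of -1.10 points (SE 0.976). Set b6947 ranked 87.6 ± 4.33 and 86.5 ± 2.09, with PO 1 and PO 2 at 93.1 each and every other sample at 83.1 to 88.8; its difference ran from -2.20 without PO 6 to -0.37 without LO 4. Set b6965, which holds b6965_3_2, differed by 1.06 points (SE 1.65), which was 0.21 without PO 1 and 2.29 without LO 4, and b7007 by 0.58 points (SE 2.07), with values from 83.8 to 95.2 in PO and 85.1 to 95.0 in LO.

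The lowest mean ranks among the 45 sets were those of b6972, b6997 and b6968, the last described above. Set b6972, with 3 kept probes, ranked 76.0 ± 10.2 in PO and 74.5 ± 10.9 in LO. Set b6997, with 5 kept probes, ranked 75.6 ± 11.1 in PO and 75.3 ± 9.78 in LO. Values ran from 57.4 (LO 9) to 90.9 (LO 4) in b6972 and from 54.5 (PO 5) to 86.3 (PO 1) in b6997, so samples of the same oil lay much further apart than the group means.

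**Figure D4:**
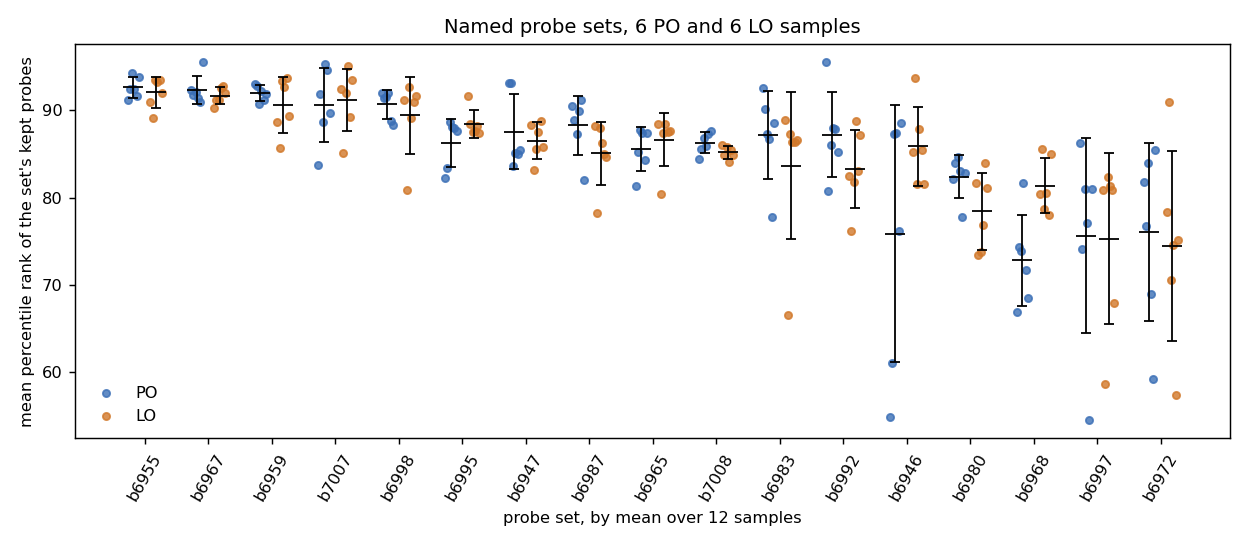
Mean percentile rank of the kept probes (y axis) of the 17 named sets, ordered by their mean over the 12 samples; each point is a sample (blue PO, orange LO, 6 each), and bars show the mean ± SD. Every set overlaps between the oils, in b6968 PO 4 alone lies within the LO range, and the spread between samples grows towards the sets of lower rank.

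The share of a set's probes above background, which does not use rank order, was also compared. In limma 0 of 64 sets passed (0% called, smallest adjusted p 0.145), and 5 sets were under 0.05 before adjustment (7.81%), each of them lower in LO. The share was lower in LO for 58 of the 64 sets, higher for 5 and equal for 1, with a median difference of -3.67 points. The number of detected probes itself was 1112.5 ± 239 in PO and 948 ± 134 in LO, with PO 1, PO 2 and PO 3 (1434, 1339 and 1163) above all LO samples, so sets moved together with this number, and its part in their differences was not tested.

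The shares with the smallest p belonged to sets with few detected probes. In set b6964 (86 probes) 3.49% to 9.30% of the probes were above background in PO and 0% to 3.49% in LO. The highest LO sample met the lowest PO samples at 3.49%, and the means were 6.59% ± 2.72 and 1.74% ± 1.22 (SD, n = 6 each), a difference of -4.84 points (SE 1.28, limma adjusted p = 0.145). In set b6961 (55 probes) the shares were 1.82% to 7.27% in PO and 0% to 1.82% in LO, with means of 3.94% ± 2.13 and 0.606% ± 0.939, a difference of -3.33 points (SE 1.03, limma adjusted p = 0.205). A probe of b6961 is worth 1.82% of the set, so the LO samples had 1 probe above background or none.

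Shares higher in LO were small. Set b6994 had 19.4% ± 3.16 of its 42 probes above background in PO and 21.8% ± 2.78 in LO, a difference of 2.38 points (SE 2.37, limma adjusted p = 0.449). Set b6968 had 8.21% ± 5.73 and 10.98% ± 4.27, a difference of 2.76 points (SE 2.77, limma adjusted p = 0.449). The difference of b6994 was 1.35 without PO 5, and that of b6968 ran from 1.25 without LO 11 to 4.44 without PO 2. In both sets 4 of 6 LO samples lay above the PO mean, and the groups overlapped.

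Detection of single probes did not split by oil either. No probe was above background in all 6 samples of one oil and in none of the other. Of the 4441 probes 679 were above background in all 6 PO samples and 595 in all 6 LO samples. Of the 595, 6 were above background in at most 2 PO samples, and 0 probes were of the opposite kind. The count of 6 is a description, since it picks probes by their detection in LO. Of these 6, 3 belong to stem b6968_1, and the others were b6950_2_3, b6955_5_5 and b6963_1_6, each of which ranked within the 77.0 to 87.4 range in LO.

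The brightest probes varied from sample to sample. The 100 brightest probes of the 12 samples together made up 432 different probes, 137 of which were among the 100 brightest in 1 sample only. No probe was among them in more than 8 samples. Samples shared on average 25.2 of their 100 brightest probes within PO, 26.7 within LO and 24.2 between the oils, with single pairs from 3 to 57 within PO. The most frequent were b6956_4_29 and b6959_4_15, in 8 samples each. Probes b6959_3_88 and b6991_2_6 were among the 100 brightest in 5 LO samples and in 0 and 1 PO samples, respectively; they are named because there were only 2 such probes, with 0 of the opposite kind.

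Set b6959 led the 100 brightest probes in 10 of the 12 samples, without adjustment for set size. The set has 324 of the 4441 probes on the array and 182 of the 979 kept probes. It held 8 to 34 of the 100 brightest in PO with a median of 25 and 20 to 64 in LO with a median of 29.5. The high values came from LO 6 (64) and LO 9 (49), while the other LO samples (20 to 30) lay within the PO range. The means were 23.8 ± 9.45 and 36.7 ± 16.5 (SD, n = 6 each). Set b6955 led in the other 2 samples, PO 3 (39) and PO 6 (26), and held 19.2 ± 13.1 in PO and 16.7 ± 5.72 in LO. Some sets were bright in a few samples of both oils: b7007 held 15 in PO 4, 14 in PO 5, 12 in LO 11 and 7 in LO 8, and at most 3 in each other sample.

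How far the brightest probes were concentrated was compared by a pair of measures. The 100 brightest probes came from 22.5 ± 4.14 sets in PO (17 to 27) and 21.3 ± 4.08 in LO (17 to 28), a difference of -1.17 (exact permutation, two-sided, p = 0.667). The leading set held 30.2 ± 5.78 of them in PO (25 to 39) and 36.7 ± 16.5 in LO (20 to 64), a difference of 6.5 (exact permutation, two-sided, p = 0.435), which was 1.03 without LO 6. The composition, similarity and these 2 measures made 4 single-value tests, and after Benjamini-Hochberg adjustment over them each exact permutation p was 0.758. With 924 splits the smallest p that this design allows is 0.0022.

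**Figure D5:**
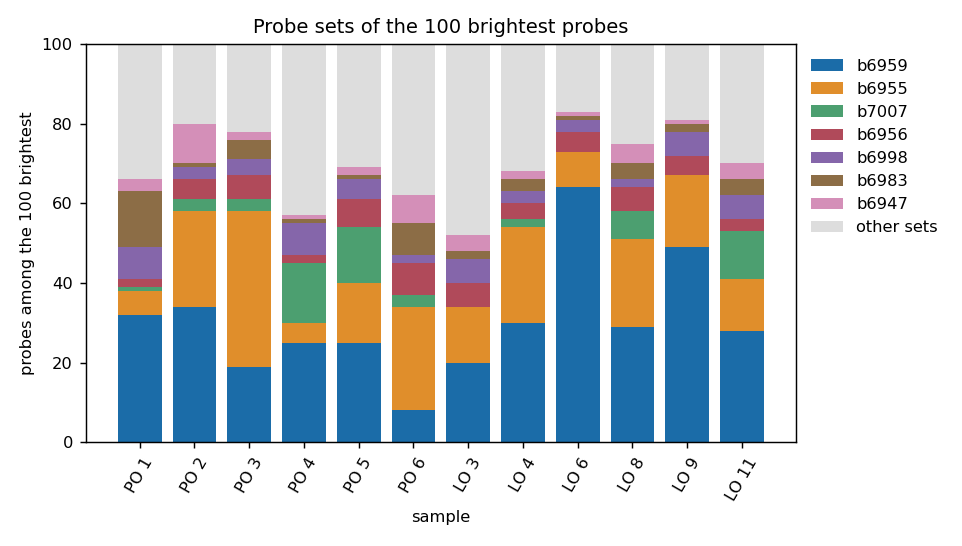
Number of the 100 brightest probes of each sample (y axis) that belong to each of the 7 sets with the most such probes over the 12 samples, and to all other sets (grey). Set b6959 (dark blue) takes 8 in PO 6 and 64 in LO 6, and the make-up varies among samples of the same oil.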

How the data were processed

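Two-dye Agilent arrays were treated as single channels, and the Cy3 channels of 6 PO and 6 LO samples were used. The deposited spot intensities are linear and come from Agilent Feature Extraction 10.5.1.1 (per the file headers). The mean signal and the local background were used without the authors' dye adjustment, together with the deposited flags, which are 0 or 1 (another unit). The number of arrays limits the precision.

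Background was corrected by normexp with offset 50. Spots flagged as outliers were left out unless all 3 of a probe were, the rest were averaged on the log2 scale, and probes were ranked within each sample. Detection of a probe required that the deposited flag marked more than 0.5 of the spots left as well above background. Flagged outliers made up 16.7% to 41.6% of a sample's spots. Kept probes were averaged into sets.

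For rank differences limma 3.58.1 was run in R 4.3.3 (empirical Bayes with trend, adjusted p under 0.05 passing), single values by exact permutation. The script was tested on simulated data. The side-by-side Cy5 values come from a joint fit of all 25 samples. Plots used matplotlib 3.10.9 (Python 3.11.15). Named items were at most 2 probes and 2 sets in each direction, by the smallest p where none passed, with probes above background in every sample of a group, plus 11 listed sets, the 3 highest and the 3 lowest sets; the same rule was applied to detected shares. These members and lists were chosen with earlier results of these data known. One Cy3 channel outside the 12 samples was not used, and for 4 of the Cy5 samples labels and columns give different numbers, so these entered by group only. LO and PO share the numbers 3, 4 and 6, but the correlation of same-numbered samples' deviations from their group means was -0.0994, -0.0682 and 0.0863, so the numbers were not taken as pairs. Alternatives covered signal, outlier spots, detection, filter, scale, set averaging, top list size, replicate block and each sample left out. Probe sequences served to count differences and GC content.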

Additional observations from a re-analysis of the deposited data

Results flagged for a closer look

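In groups of 6, a value was picked out where the highest or lowest sample lay far from the rest (by Dixon's criterion on the gap over the range). Of 54 groups of values looked at 12 were picked out. The criterion picks out about 1 in 20 groups of independent values by chance. These groups share the same samples, so the count cannot be set against that rate.

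PO 1 stood apart in PO by its median raw intensity (684, next 129), its negative controls (500.4, next 98.2) and its mean correlation with the other samples (0.522, next 0.686). LO 4 stood apart in LO by 679 detected probes (next 971) and by a correlation between spots of 0.640 (next 0.853). LO 4 was also far below the other LO samples in the mean rank of set b6998 (80.8, next 89.1), b6983 (66.6, next 86.3), b6965 (80.4, next 87.4) and b6987 (78.2, next 84.7). LO 3 was above the other LO samples in set b6995 (91.6, next 88.4). In PO, PO 6 was above the others in set b6967 (95.5, next 92.3) and PO 5 below them in set b6980 (77.8, next 82.1). Of the 12 values 6 belong to LO 4 and 3 to PO 1, the samples whose spots agreed least; whether spot agreement bears on the set ranks was not tested.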

How the results depend on the processing

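The 3 counts of probes, sets and detected shares past the limma test stayed at 0 under all 31 alternatives. The named probes kept their direction under every alternative that kept them, and among the sets so did b6955, b6968 and b6987. The rank difference of b6968 ran from 1.27 to 11.5 points. Without the filter on dim probes the composition passed (pseudo-F 1.77, exact permutation p = 0.0346).

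No reversed difference passed. Some were larger in size than the main difference, as for b6965 and b7007 with the replicate block. With all 3 spots kept, b7007 was -0.80 and the similarity difference -0.00565. Without the filter, and alike with set means over all probes, b6959 was 0.59, b7008 0.42, b6967 0.26 and b6980 0.72. Set b6967 was 0.14 with the filter at 3 of 12 samples and with the positive and significant flag, under which b6980 was 0.52 and the similarity -0.00316; b6980 was 0.96 with the filter at all 12. As normal scores b7007 was -0.015 and b6967 0.022, and on scaled log2 intensity b6965 was -0.28 and b7007 -0.069. With stems averaged b6995 was -0.47, b7007 -0.32, b6947 0.26, b7008 0.077 and the similarity -0.0473. With the top list at 200, the difference in sets was 1.67. With the replicate block on the shared numbers (3 pairs, so 6 samples) b6965 was -2.10, b7007 -1.34, b6947 0.97 and b6946 -0.93; the counts past the test were 0 in this fit too. Without PO 1 and LO 4 together, b6998 was 0.70, b6983 1.03 and b6992 0.39. Leaving out each sample in turn, b7007 ran from -0.79 to 1.80, b6998 from -1.94 to 0.43 and the similarity from -0.0277 to 0.138. The cause of these changes was not tested, apart from fewer or other probes or samples entering by construction.

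Oil and slide cannot be told apart, the ranks are relative, and sets and stems pool near-identical probes. With 6 samples per oil and a median SE of 2.36 rank points, differences of the size seen at most probes could not be detected, and a count of 0 is no evidence that the oils act alike.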
